A study of Mus musculus with 82 samples.

Results

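The 10 genes described here act in G2 and mitosis, the parts of the cell cycle in which a cell prepares to divide and then divides. They were chosen by name: Cdk1, Wee1, Ccna2, Ccnb1, Ccnf, Plk1, Aurka, Bub1, Top2a and Nusap1, of 24752 genes with a curated RefSeq span on GRCm38. Transcription was read in V6.5 mouse ES cells, a line of embryonic stem cells grown in serum with leukaemia inhibitory factor on gelatin, without any treatment or selection for a cell-cycle stage. In each assay, polymerases in isolated nuclei or permeabilized cells added 1 propargyl nucleotide to the RNA they were making, and the labelled RNA was joined by click chemistry to a DNA oligonucleotide (with a barcode in inAGTuC and scGRO–seq), so that the last base of each RNA marks a polymerase. AGTuC labels a population of nuclei in a high concentration of detergent (2 libraries of 1 experiment), inAGTuC labels intact nuclei, many in each well, in a low concentration (4 libraries), and scGRO–seq labels intact nuclei in the same way and sorts 1 nucleus into each well (10 batches of plates).

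Cdk1 is the kinase that drives entry into mitosis, and it needs a cyclin as partner. Cyclin A2 and cyclin B1 bind and activate it, and Wee1 holds it inactive by phosphorylation until mitosis begins. Cyclin F is a subunit of a ubiquitin ligase that marks proteins for degradation in G2. Plk1 and Aurora A (Aurka) are kinases of centrosomes and of the spindle, and Bub1 is a kinase of the checkpoint that holds back the separation of chromosomes. Topoisomerase IIα (Top2a) untangles DNA strands before chromosomes separate, and Nusap1 binds and bundles spindle microtubules. The messenger RNAs of genes of this kind rise in G2 and mitosis in dividing cells, and their promoters are known for CCAAT boxes, which bind the factor NF-Y, and for CHR elements, which bind complexes that hold such genes silent in early phases of the cycle.

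Each entry of the deposited lists stands for 1 read that remained once copies with the same unique molecular identifier were removed, and is called a UMI below. Sense UMIs were counted over whole spans, in kept scGRO–seq cells (2512 cells of 35 plates) and in whole inAGTuC and AGTuC libraries. A level is given in CPM, UMIs per 1000000 sense UMIs on genes in the same batch or library. Between 144755 and 2568371 sense UMIs on genes stood behind a scGRO–seq batch, between 273656 and 871494 behind an inAGTuC library and between 1403036 and 2967518 behind an AGTuC library. The 10 genes together held 4301 UMIs in scGRO–seq cells, 104 in the batch with fewest and 2094 in the batch with most. All 8 markers of ES cells had UMIs in every assay, with a summed level of 513 to 1528 CPM in scGRO–seq, 727 to 1174 CPM in inAGTuC and 1814 to 1870 CPM in AGTuC. The 8 fibroblast markers summed to 25.5 to 135 CPM in scGRO–seq, 39.01 to 122 CPM in inAGTuC and 25.7 to 32.01 CPM in AGTuC, where Col1a2, Col3a1, Postn and Dcn were at 0. The 8 markers of differentiating lineages summed to 32.01 to 177 CPM in scGRO–seq, 58.5 to 107 CPM in inAGTuC and 114 to 120 CPM in AGTuC, where T was at 0. Of 254 cell barcodes, 226 were found among kept cells of more than 1 plate, since the plates were filled from the same barcode sets.

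The spans are mostly intron, from 58.7% of Ccna2 to 90.7% of Nusap1. The shortest is Ccnb1 (chr13:100778739-100786486, minus strand, 7748 bp), followed by Ccna2 (chr3:36564865-36573038, minus, 8174 bp) and Plk1 (chr7:122159435-122169884, plus, 10450 bp). Aurka (chr2:172356190-172370570, minus), Cdk1 (chr10:69335146-69352912, minus) and Wee1 (chr7:110122059-110143299, plus) run over 14381, 17767 and 21241 bp. Ccnf (chr17:24223232-24251409, minus), Top2a (chr11:98992947-99024189, minus), Bub1 (chr2:127800200-127831859, minus) and Nusap1 (chr2:119618298-119650160, plus) are the longest, with 28178 to 31863 bp. No other gene overlaps a member on its own strand apart from small RNA genes inside Ccnf, Top2a and Nusap1. On the other strand, Exosc9 overlaps 863 bp of Ccna2 and Oip5 overlaps 208 bp of Nusap1.

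RefSeq promoter sequences of GRCm38.p6 were held for 8 members (not for Ccna2 and Wee1), and the 250 bases before each start were searched on both strands for CCAAT, for the CHR letters TTTGAA (or in a variant form TTCGAA and in another CTTGAA), and for the E2F letters TTCCCGC (or in variant forms TTGGCGC as well as TTCGCGC and further TTGCCGC). Those of Cdk1, Ccnb1, Plk1, Top2a and Nusap1 are shown, since they span the range of motif content and since polymerases just past these starts are a main readout below. Capitals mark the motifs, and each sequence ends at the base before the listed start.
Cdk1 (chr10:69352913-69353162, minus): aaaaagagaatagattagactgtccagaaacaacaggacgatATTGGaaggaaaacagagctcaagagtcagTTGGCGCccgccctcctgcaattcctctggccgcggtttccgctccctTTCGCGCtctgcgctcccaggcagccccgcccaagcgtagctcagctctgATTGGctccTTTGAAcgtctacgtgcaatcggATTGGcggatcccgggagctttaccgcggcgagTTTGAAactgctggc
Ccnb1 (chr13:100786487-100786736, minus): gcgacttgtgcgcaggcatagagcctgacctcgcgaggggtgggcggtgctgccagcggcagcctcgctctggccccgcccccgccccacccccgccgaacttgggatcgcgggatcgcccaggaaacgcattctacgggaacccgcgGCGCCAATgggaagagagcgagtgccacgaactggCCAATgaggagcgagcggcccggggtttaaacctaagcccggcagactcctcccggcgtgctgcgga
Plk1 (chr7:122159185-122159434, plus): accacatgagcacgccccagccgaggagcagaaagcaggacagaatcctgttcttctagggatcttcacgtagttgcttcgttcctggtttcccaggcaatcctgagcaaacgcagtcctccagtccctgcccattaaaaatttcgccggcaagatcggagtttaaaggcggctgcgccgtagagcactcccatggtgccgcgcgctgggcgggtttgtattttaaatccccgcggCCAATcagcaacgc
Top2a (chr11:99024190-99024439, minus): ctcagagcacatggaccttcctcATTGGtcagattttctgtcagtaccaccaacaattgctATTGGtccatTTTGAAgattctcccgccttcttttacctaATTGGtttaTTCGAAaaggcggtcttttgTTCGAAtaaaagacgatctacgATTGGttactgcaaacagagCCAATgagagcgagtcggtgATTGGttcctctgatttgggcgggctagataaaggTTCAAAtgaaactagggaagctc
Nusap1 (chr2:119618048-119618297, plus): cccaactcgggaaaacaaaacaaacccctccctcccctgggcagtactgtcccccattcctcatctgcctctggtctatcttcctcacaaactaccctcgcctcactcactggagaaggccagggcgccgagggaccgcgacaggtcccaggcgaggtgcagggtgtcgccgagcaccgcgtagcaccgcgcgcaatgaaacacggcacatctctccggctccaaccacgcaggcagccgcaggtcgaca

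A CCAAT box stood in 7 of the 8 member promoters and in 33.8% of all 32851 promoters of the table. Top2a had 6 of them, Cdk1 had 3 and Plk1 had 1, and Nusap1 was the member without one. A CHR sequence of the searched forms stood in 4 members (Aurka, Ccnf, Cdk1 and Top2a) and in 26.1% of all promoters. Other forms of this element were not searched, so the other members may hold one. An E2F sequence stood in Cdk1 and Ccnb1 and in 7.89% of all promoters, and in Ccnb1 it overlapped the CCAAT box at positions -99 to -95, counted back from the start. These matches describe the letters before the listed starts and were not tested for binding.

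Polymerases of AGTuC were densest just past the listed start in 7 members. In Cdk1, Plk1, Aurka and Bub1 the 50-bp bin with most AGTuC UMIs lay 50 to 99 bp past the start, in Ccnf 100 to 149 bp past it, and in Wee1 and Top2a within the first 50 bp. In Ccnb1 that bin lay 3450 to 3499 bp past the start, with 14 of 391 UMIs, so that no bin stood out. In Nusap1, 5 UMIs lay in the first 450 bp and 111 of 401 (27.7%) in the bin 450 to 499 bp past the RefSeq start, which is 31 bp past a second start that GENCODE lists 419 bp inside the span. In Ccna2, 109 of 368 AGTuC UMIs (29.6%) lay in the bin 1100 to 1149 bp inside the span, past a GENCODE start at 888 bp, and 1 UMI lay in its first 500 bp. The 250 bases before the dense bin of Nusap1 (chr2:119618498-119618747, plus), read from GRCm38.p6, are shown because they differ in motif content from those before its RefSeq start.
Nusap1, before the dense bin: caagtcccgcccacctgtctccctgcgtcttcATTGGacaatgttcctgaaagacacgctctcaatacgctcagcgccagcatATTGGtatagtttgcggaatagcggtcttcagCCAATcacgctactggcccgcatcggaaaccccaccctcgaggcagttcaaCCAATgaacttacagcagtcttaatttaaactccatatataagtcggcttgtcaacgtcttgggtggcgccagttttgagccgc
This stretch held 4 CCAAT boxes, 2 on each strand, at positions -218 to -80 before the bin, where the stretch before the RefSeq start held 0.

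In scGRO–seq, Top2a had the highest level per length, and Nusap1 and Wee1 the lowest levels. Top2a had 10.0 ± 3.96 CPM per kb (SD, n = 10 batches), and Ccnb1 followed with 4.62 ± 2.52, Ccnf with 4.12 ± 1.94 and Cdk1 with 3.94 ± 1.16 CPM per kb. Ccna2 (3.10 ± 1.34), Aurka (2.70 ± 0.964), Bub1 (2.62 ± 1.09), Plk1 (2.23 ± 1.09), Nusap1 (2.00 ± 0.594) and Wee1 (1.95 ± 0.819 CPM per kb) came after. Apart from Top2a, which exceeded Ccnb1 in 8 of 10 batches, no gene exceeded the next in this order in more than 7 of 10 batches, and the mean of each was within 1 SD of the next. Without the dense windows described below, Ccnb1 moved to 3.58 ± 1.08 CPM per kb, behind Ccnf and Cdk1, and Nusap1 to 1.60 ± 0.436, below Wee1. In a population of cells, fewer cells that transcribe a gene and fewer polymerases per transcribing cell cannot be told apart in such a level.

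In AGTuC, 6 of the 10 genes had a higher measured level than in scGRO–seq, and none a lower one. They were the kinases Cdk1, Plk1 and Aurka and the cyclins Ccna2, Ccnb1 and Ccnf, with differences of 0.92 to 1.71 on the log2 scale. The 4 others, Wee1, Bub1, Top2a and Nusap1, did not pass the test. Among all 12205 genes tested, 25.8% were higher and 26.6% lower in AGTuC (limma on voom weights, Benjamini–Hochberg adjusted p under 0.05), and the median difference was 0.94 for the 10 genes and 0.01 for all genes. Both AGTuC libraries lay above all 10 scGRO–seq batches in CPM for 7 of the 10 genes and for 31.1% of the genes tested, and below all of them for 10.9% of the genes tested. CPM is scaled to the total alone. The fitted differences also use a TMM factor per sample (see the processing below), 1.27 and 1.25 for the AGTuC libraries. CPM values and fitted differences are thus on unlike scales.

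Plk1 had the largest difference among the 10. In scGRO–seq batches it ran from 7.91 to 48.4 CPM with a median of 20.1, and the inAGTuC libraries had 36.5, 25.0, 15.0 and 20.7 CPM. The AGTuC libraries had 97.6 and 92.3 CPM, apart from all other samples, and the fitted difference to scGRO–seq was 1.71 ± 0.28 (SE, log2 scale, adjusted p = 9.1e-05). Aurka, the other mitotic kinase that was higher, ran from 22.4 to 69.1 CPM with a median of 36.1 in scGRO–seq and had 40.2, 68.8, 44.9 and 36.7 CPM in inAGTuC. Its AGTuC libraries had 139 and 130 CPM, a difference of 1.47 ± 0.24 on the log2 scale (limma, adjusted p = 9.4e-05). The groups overlapped between scGRO–seq and inAGTuC, and the AGTuC libraries stood above both.

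**Figure D1:**
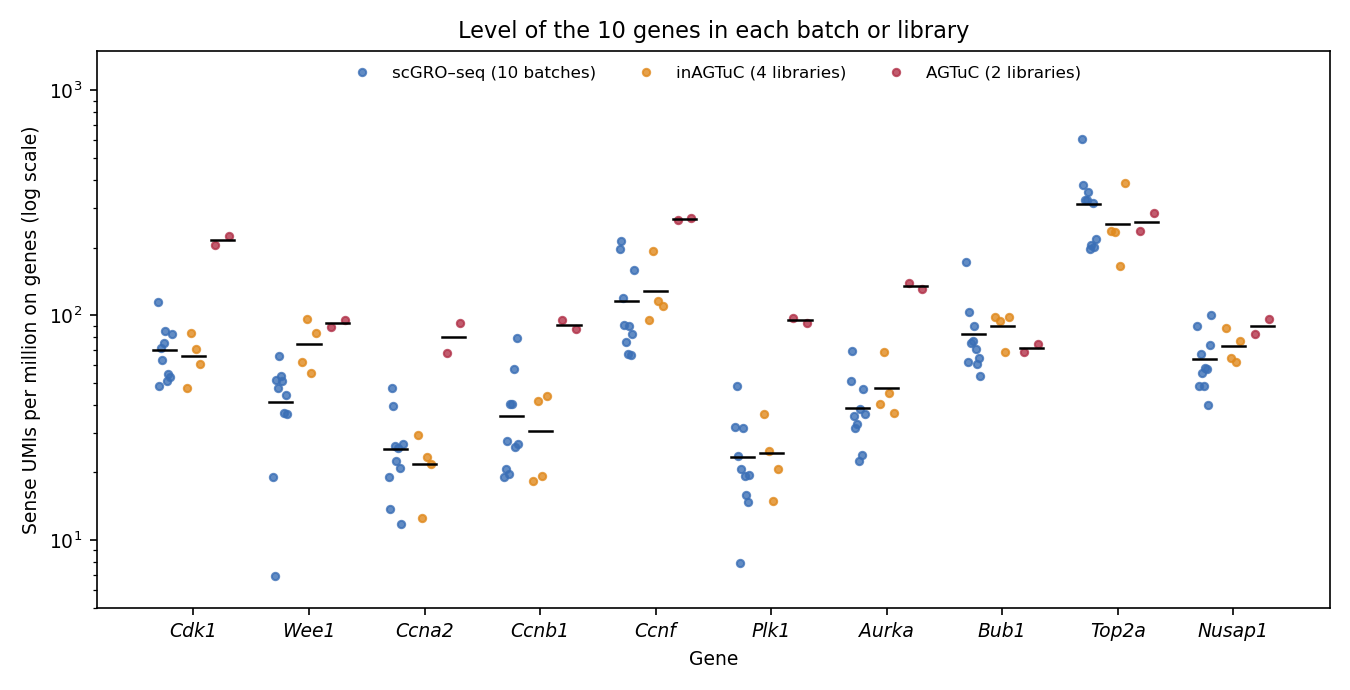
Level in CPM (sense UMIs on genes, log scale) for each of the 10 genes, with 1 point per scGRO–seq batch (blue), inAGTuC library (orange) or AGTuC library (red) and a black line at the mean of each assay. AGTuC points lie above all others for Plk1 and Aurka, at 92.3 to 139 CPM, and among the others for Bub1 and Top2a.

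Cdk1 showed the same order of assays. Its level ran from 48.4 to 115 CPM with a median of 67.2 in scGRO–seq, and the 4 inAGTuC libraries had 47.5, 83.4, 70.6 and 60.8 CPM. With 206 and 226 CPM in AGTuC, the difference was 1.19 ± 0.24 on the log2 scale (limma, adjusted p = 0.000445). Both of its cyclin partners were also higher in AGTuC. Ccna2 ran from 11.8 to 47.5 CPM (median 24.03) in scGRO–seq, had 29.2, 12.5, 23.5 and 21.8 CPM in inAGTuC and 67.7 and 92.00 CPM in AGTuC (difference 1.19 ± 0.29, adjusted p = 0.00199). Ccnb1 ran from 19.1 to 79.5 CPM (median 27.2), had 18.3, 41.7, 19.3 and 43.6 CPM in inAGTuC and 94.8 and 86.9 CPM in AGTuC (difference 0.92 ± 0.33, adjusted p = 0.0265). In both cyclins, the AGTuC libraries lay above every scGRO–seq batch, with the closest approach in Ccnb1, whose batch Exp263 reached 79.5 CPM. That batch had 26.5 CPM without a window that held 18 of its 27 UMIs, described below. Ccnf, the cyclin without a kinase partner, ran from 66.6 to 214 CPM (median 90.3) in scGRO–seq, had 95.01, 194, 116 and 110 CPM in inAGTuC and 266 and 270 CPM in AGTuC (difference 0.96 ± 0.32, adjusted p = 0.0154).

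The inhibitor Wee1 ran from 6.91 CPM (1 UMI, in Exp160) to 65.8 CPM in scGRO–seq, and had 62.1, 95.9, 55.6 and 83.8 CPM in inAGTuC. Its AGTuC libraries had 89.1 and 95.03 CPM, above every scGRO–seq batch, yet the difference of 0.60 ± 0.35 did not pass (adjusted p = 0.158). Bub1 had 68.4 and 74.1 CPM in AGTuC, within the scGRO–seq range of 53.5 to 172 CPM, and a difference of -0.55 ± 0.27 (adjusted p = 0.0962). Top2a had 237 and 284 CPM in AGTuC, within the scGRO–seq range of 198 to 605 CPM (difference -0.61 ± 0.37, adjusted p = 0.176), and Nusap1 had 82.7 and 96.0 CPM against 39.8 to 99.8 CPM (0.11 ± 0.27, adjusted p = 0.741). All p-values in these paragraphs are from limma's fit over 12205 genes. AGTuC comes from 1 experiment without scGRO–seq plates, so that assay and experiment cannot be told apart, and the spread between its 2 libraries may be technical. With levels scaled to the total alone (no TMM), the median of all genes moved to 0.475, 5045 genes were higher and 2398 lower in place of 3149 and 3245, and 8 of the 10 genes were higher. With either AGTuC library left out, and with limma's trend in place of voom, Cdk1, Plk1 and Aurka passed in all 3 fits, Ccna2 in 1 and Ccnb1 and Ccnf in none. Ccnb1 did not pass either with all deposited reads (0.69 ± 0.34, limma, adjusted p = 0.0900) or with all batches (0.59 ± 0.61, adjusted p = 0.464). With all deposited reads, Bub1 (-0.78) and Top2a (-0.85) passed as lower in AGTuC.

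None of the 10 genes passed the test between inAGTuC and scGRO–seq in the same fit, with differences from -0.39 ± 0.33 (Ccna2) to 0.61 ± 0.32 (Wee1) on the log2 scale. None of the 12205 genes passed (0% called by limma, 699 at an unadjusted p under 0.05), and none of the members had an unadjusted p under 0.05. All 4 inAGTuC libraries lay above all 10 scGRO–seq batches for 0 of the 10 genes and 0.0574% of the genes tested. The median difference of the members was 0.03, against 0.01 for all genes. Wee1 came closest, with an unadjusted p of 0.068 and an adjusted p of 0.861, and 2 of 4 inAGTuC libraries above every scGRO–seq batch. Experiment Exp208 holds both assays, and within it the log2 ratio of inAGTuC (mean of 2 libraries) to scGRO–seq was above 0 for 6 of the 10 genes, with a median of 0.15 and a range of -1.19 (Ccna2) to 0.62 (Wee1). With the experiment as a block, the difference rested on Exp208 alone, and for the 8 members tested it ran from -0.56 (Top2a) to 0.49 (Aurka). That fit set the pooled scGRO–seq cells of Exp208 against its 2 inAGTuC libraries. Its spread came from those 2 libraries only, so it does not decide which genes differ. In Exp208, Wee1 had 51.4 CPM in scGRO–seq cells and 62.1 and 95.9 CPM in inAGTuC wells.

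A large part of the scGRO–seq UMIs of Top2a lay at 1 place. In the 150 bp from 7100 to 7249 bp past its start (0.480% of the span, intronic), scGRO–seq had 627 of 1771 UMIs (35.4%) in 465 cells, inAGTuC had 80 of 591 (13.5%) and AGTuC had 15 of 1175 (1.28%). Of the 627 UMIs, 76.6% had a mapping quality under 20, a low value that the aligner often gives where a read has another similar place in the genome. The window holds the end of a small nucleolar RNA gene, LOC115487886 (SNORA32 in RefSeq, chr11:99017031-99017152, minus strand, 122 bp). In the RNA strand of this region (chr11:99017011-99017090), shown here because the pile-up falls on it, capitals mark the 10 bases that hold the last base of 545 of the 1771 scGRO–seq UMIs (30.8%), and the annotated small RNA ends at base 60 of the 80 shown.
Top2a, intron: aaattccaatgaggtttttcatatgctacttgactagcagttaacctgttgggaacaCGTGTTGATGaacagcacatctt
The capitals run from base 58 to base 67, across the annotated end of the small RNA. In all, 181 of the 1771 scGRO–seq UMIs of Top2a ended on the annotated small RNA, so most of the 627 UMIs in the window ended outside it.

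Every scGRO–seq batch had UMIs in this window, from 9.09% of Top2a UMIs in Exp246 to 43.2% in Exp236. In inAGTuC, Exp234 had 0 of 77, which allows a share of up to 3.90%, while Exp208 had 12.99% and Exp261 had 16.9%. Without the window, the level of Top2a was 7.45 ± 2.27 CPM per kb in scGRO–seq, 7.08 ± 2.32 in inAGTuC, and 7.59 and 8.98 in the AGTuC libraries. The 3 assays overlapped with the window and without it. The difference of AGTuC to scGRO–seq moved from -0.61 to -0.21 ± 0.36 on the log2 scale (limma, adjusted p = 0.581). The window was chosen for its share in scGRO–seq, so the direction of this move was given by the choice. In scGRO–seq, Top2a still had the highest level per length, above Ccnf in 10 of 10 batches.

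**Figure D2:**
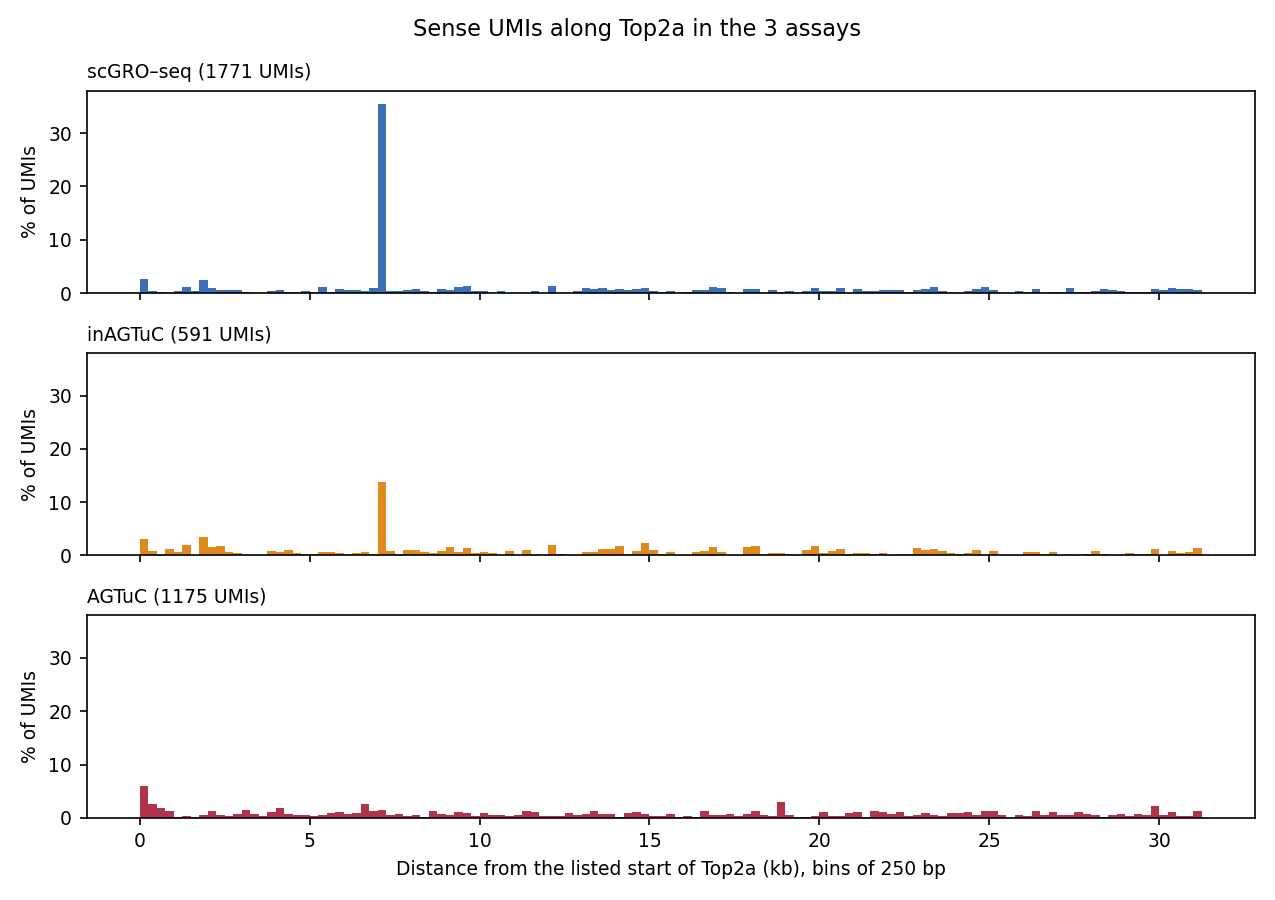
Percent of the sense UMIs of Top2a in bins of 250 bp by distance from its listed start (kb), in scGRO–seq (1771 UMIs), inAGTuC (591) and AGTuC (1175). The tall bin near 7 kb in scGRO–seq holds the end of the small nucleolar RNA gene, with 628 UMIs in scGRO–seq and 18 in AGTuC.

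Similar windows were found in Nusap1 and Ccnb1 by the same rule, that a 50-bp bin holds over 10% of the scGRO–seq UMIs of a member. In Nusap1, 55 of 305 scGRO–seq UMIs (18.03%) and 32 of 151 inAGTuC UMIs (21.2%) lay 12850 to 12999 bp from the start, over the end of a pseudogene of 5S ribosomal RNA (n-R5s204, chr2:119631118-119631236, plus), where AGTuC had 2 of 401 (0.499%). Without this window the difference of AGTuC to scGRO–seq in Nusap1 was 0.40 in place of 0.11 (limma, adjusted p = 0.147). In Ccnb1, the window 4450 to 4599 bp from the start has its densest bin in an intron and off any annotated small RNA. It had 38 of 203 scGRO–seq UMIs (18.7%), of which 18 were in batch Exp263, 11 of 72 inAGTuC UMIs (15.3%), all in Exp261, and 21 of 391 AGTuC UMIs (5.37%). The count of members higher in AGTuC was 6 with and without these 3 windows. The windows were chosen by scGRO–seq UMIs alone, so leaving them out favours a higher difference of AGTuC, and these values are a description. Bins with over 10% of a member's AGTuC UMIs were kept, among them those of Ccna2 (29.6%) and Nusap1 (27.7%).

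Polymerases near the start were the other difference between assays. In the first 500 bp of their spans the 10 genes had 0.719% (Ccna2) to 12.5% (Plk1) of their UMIs in scGRO–seq, and 0.272% (Ccna2) to 32.1% (Plk1) in AGTuC. The share of Ccna2 is counted from its RefSeq start. Of its 368 AGTuC UMIs, 109 (29.6%) lay in the bin 1100 to 1149 bp inside the span, outside this part. Among the 9 genes that could be tested (all but Ccna2), this promoter share was higher in AGTuC for 4, Nusap1, Ccnf, Bub1 and Cdk1, and lower for none. A test needed at least 15 UMIs in each part over all samples. Nusap1, Bub1, Wee1 and Ccnb1 reached 15 promoter UMIs only through AGTuC. They had 3, 7, 6 and 7 of them in scGRO–seq and 4, 3, 8 and 4 in inAGTuC. The filter thus favours a higher share in AGTuC, here and over all genes tested. Of all 11439 genes tested, 48.7% had a higher and 0.542% a lower promoter share in AGTuC (limma, test of the interaction of gene part and assay, adjusted p under 0.05). The median change in the log2 ratio of promoter to rest was 1.65 for the 9 genes and 2.10 for all genes.

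**Figure D3:**
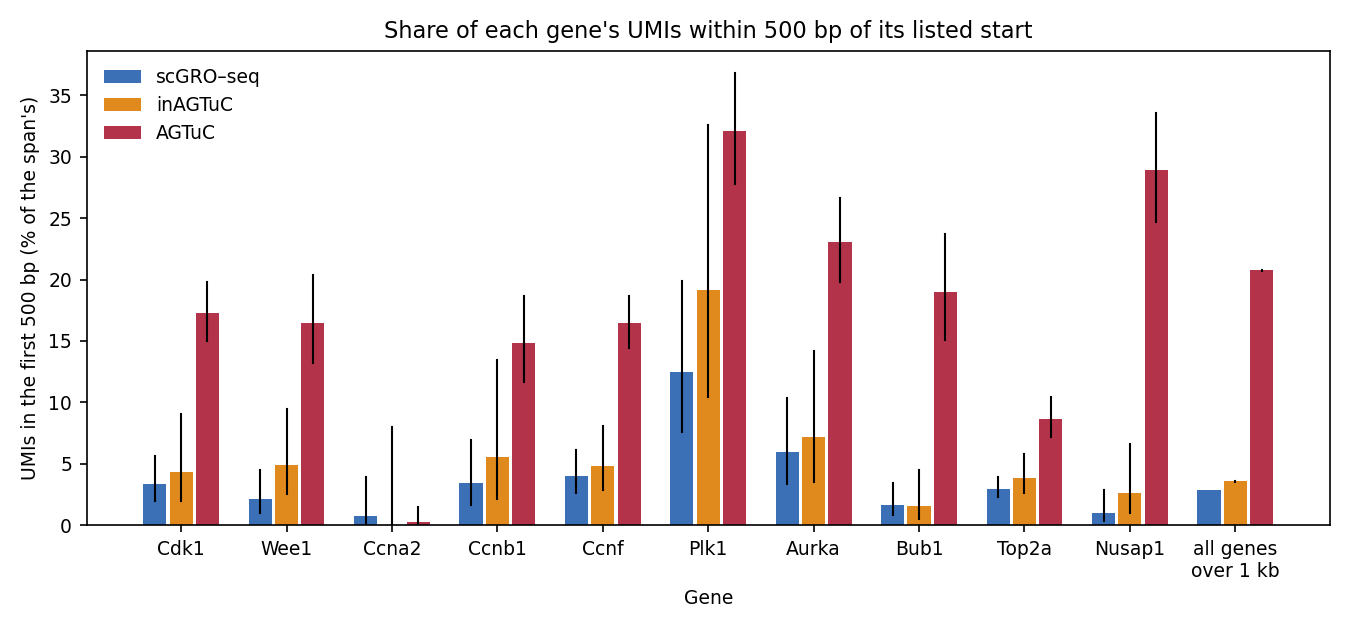
Percent of each gene's sense UMIs that lie within 500 bp of its listed start, pooled over each assay, with 95% Wilson intervals (counting error only), and the same over all genes longer than 1 kb. AGTuC bars are the tallest in 9 of the 10 genes, up to 32.1% in Plk1. Ccna2 is at 0.272% as counted from its RefSeq start, while 29.6% of its AGTuC UMIs lie in the bin 1100 to 1149 bp past that start.

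Plk1, the kinase with the highest promoter share in each assay, had 14 of 112 UMIs in scGRO–seq (12.5%, 95% Wilson interval 7.59 to 19.9), 9 of 47 in inAGTuC (19.1%, 10.4 to 32.5) and 132 of 411 in AGTuC (32.1%, 27.8 to 36.8). The change in its log2 ratio was 1.48 ± 0.89 (SE) and did not pass (adjusted p = 0.152). Nusap1 had the largest change, 3.67 ± 0.91 (adjusted p = 0.00127), from 3 of 305 UMIs in scGRO–seq (0.984%) to 116 of 401 in AGTuC (28.9%), and 111 of these 116 lay in the last 50 bp of the 500. Nusap1 and Bub1 reached the 15 promoter UMIs of the filter only through AGTuC. A clearly lower share in AGTuC would not have been tested for them, so their tests do not decide the direction. In Ccnf the share rose from 4.00% of 500 UMIs to 16.5% of 1173 (2.62 ± 0.94, adjusted p = 0.0185), and in Bub1 from 1.69% of 415 to 18.99% of 316 (2.57 ± 1.00, adjusted p = 0.0291). In batch Exp236, 0 of 198 Bub1 UMIs lay there, and without it the scGRO–seq share was 3.23% (7 of 217) and Bub1 did not pass (2.16 ± 0.97, limma, adjusted p = 0.0626). Cdk1 rose from 3.37% of 386 UMIs to 17.3% of 960 (2.20 ± 0.90, adjusted p = 0.0368), with 16.96% and 17.44% in the 2 AGTuC libraries and 0 to 10.5% in scGRO–seq batches. Cdk1 did not pass without Exp236, Exp260b or Exp263 (limma, adjusted p = 0.0574, 0.0608 and 0.0539). Aurka (5.95% to 23.02%), Wee1 (2.11% to 16.5%), Ccnb1 (3.45% to 14.8%) and Top2a (2.99% to 8.68%) had changes of 0.99 to 1.65 that did not pass. With the first 1000 bp as the promoter part 6 of 9 members passed and 54.1% of all genes were higher, and with either AGTuC library left out 1 member did, Nusap1, with 16.5% and 19.4% of all genes.

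Between inAGTuC and scGRO–seq none of the 9 genes passed the test of the promoter share, with changes from -0.72 ± 0.78 (Bub1) to 0.63 ± 0.71 (Plk1) in the log2 ratio. The median change was 0.00 for the 9 genes and -0.22 for all genes. None of 11439 genes passed (0% called by limma, 578 at an unadjusted p under 0.05). Pooled over all genes longer than 1 kb, the promoter share was 2.90% in scGRO–seq, 3.58% in inAGTuC and 20.7% in AGTuC. Without the first and last 500 bp of each span, 7 members were higher in AGTuC in level: the same 6 and Wee1 (0.86, adjusted p = 0.0416), where 24% of 10970 genes tested were higher, with a median difference of 1.25 for the 10 genes and 0.08 for all genes. In Ccna2 this trim kept the dense part past the inner GENCODE start. The second of 10 equal parts of its span held 209 of 368 AGTuC UMIs (56.8%) and 12 of 139 scGRO–seq UMIs (8.63%). The level of Ccna2 without that part was not tested.

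Reads on the other strand of the same spans were counted as well. Over the 10 spans, antisense UMIs per 100 sense UMIs ran from 8.70 to 38.5 in scGRO–seq batches and were 6.13 and 5.05 in AGTuC. In inAGTuC they were 33.98, 23.3, 83.9 and 11.8, and the library with 83.9 was that of Exp234. Over all genes the same ratio was 19.8 to 52.4, 23.7 to 110 and 19.8 to 20.1. In AGTuC, Ccna2 and Nusap1 had 33.97 and 27.9 antisense UMIs per 100, and the other 8 genes had 0.256 to 7.13. The part of antisense reads in the differences between assays was not tested. The intronic part of the UMIs ran from 41.7% in Ccna2 to 84.3% in Nusap1 in scGRO–seq, and from 33.7% in Ccna2 to 88.7% in Ccnb1 in AGTuC.

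Between scGRO–seq batches, Ccnf and Top2a, 2 of the 8 genes with enough UMIs to be tested, differed by more than between plates of a batch. Ccna2 and Plk1 did not pass the filter on low counts. Of 6290 genes tested, 41.4% differed (limma, F test of the batch factor over 35 plates, adjusted p under 0.05), so the members' share was not above it. Ccnf, the cyclin of the ubiquitin ligase, had 214 CPM in Exp160, 197 in Exp156 and 158 in Exp264a, and 66.6 to 119 CPM in the 7 other batches (adjusted p = 0.000185). Top2a had 605 CPM in Exp156, 315 to 380 CPM in 5 batches and 198 to 219 CPM in 4 (adjusted p = 0.0419). Without Exp156 or without Exp263, or with all deposited reads, Top2a did not pass. It did not pass without the window at the small nucleolar RNA either (adjusted p = 0.163), where Exp156 had 395 CPM and the 9 other batches had 174 to 304 CPM, Exp236 201 and Exp260b 189. Exp156 was also the highest batch for Cdk1 (115 CPM) and Bub1 (172 CPM), 2 genes that did not pass (adjusted p = 0.543 and 0.168). It had the fewest UMIs per kept cell, a mean of 2166 against 3040 to 6069 in the others, and its antisense ratio over all genes was the lowest, 19.8 per 100. The part of depth and of antisense reads in these differences was not tested.

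In single cells, 1804 of 2512 kept cells (71.8%, 95% Wilson interval 70.0 to 73.5, counting error only) had a UMI of at least 1 of the 10 genes, and 929 (37.0%) had UMIs of at least 2. Top2a was seen in 1087 cells (43.3%), Ccnf in 428 (17.04%), Bub1 in 366 (14.6%) and Cdk1 in 343 (13.7%). Nusap1 (10.7%), Wee1 (10.3%), Ccnb1 (7.44%), Aurka (6.85%), Ccna2 (5.25%) and Plk1 (4.22%) were seen in fewer. With all deposited reads, where 3041 cells were kept, every share was higher, among them Ccnb1 with 11.7%, Aurka with 10.9%, Ccna2 with 8.42% and Plk1 with 6.68%. Without the dense windows, the share was 33.5% for Top2a, 8.84% for Nusap1 and 6.09% for Ccnb1. Over the window of the study, 10 kb past the first 500 bp, each gene was seen in fewer cells and the order changed. There, Top2a had 28.5%, Cdk1 9.24%, Ccnb1 6.97%, Wee1 5.65%, Ccnf 5.29%, Ccna2 4.90%, Bub1 4.58%, Aurka 4.18%, Nusap1 4.02% and Plk1 3.58%. These shares count cells with a captured UMI, not cells that transcribe the gene.

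**Figure D4:**
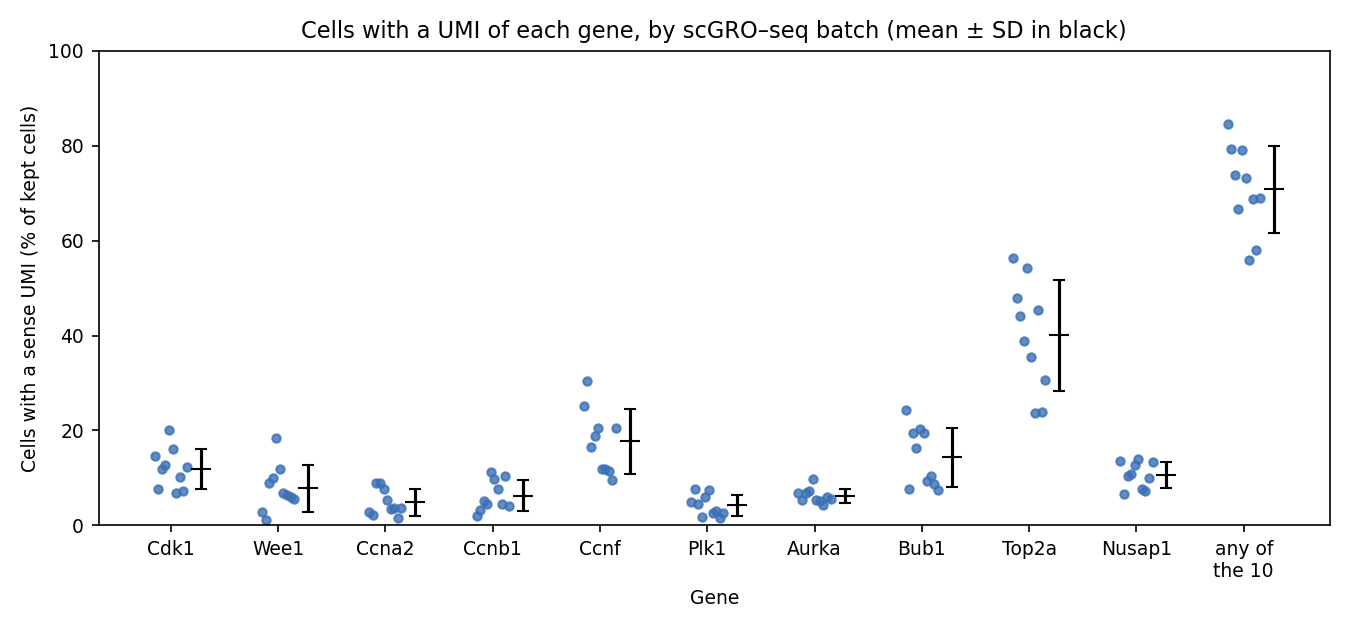
Percent of kept cells with a sense UMI of each gene and of any of the 10, with 1 point per scGRO–seq batch (10 batches) and mean ± SD in black. Top2a runs from 23.7% to 56.3% of cells and Plk1 from 1.59% to 7.61%, and any of the 10 from 55.9% to 84.5%.

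The share differed between batches, which also differ in depth. For Top2a it ran from 23.7% of cells in Exp260 to 56.3% in Exp156, with a mean of 40.01% ± 11.6 (SD, n = 10 batches). For Wee1 it ran from 1.09% in Exp160 to 18.3% in Exp236, with a mean of 7.78% ± 4.87, and for Aurka from 4.35% to 9.73%, with a mean of 6.22% ± 1.51. When each cell was thinned to 1000 UMIs, any of the 10 genes was expected in 32.3% ± 11.03 of cells, in place of 70.8% ± 9.15. Thinned, Exp156 was highest for 7 of the 10 genes, and Top2a fell to 14.03% ± 7.53, with 33.3% in Exp156. Cells with more genes of the set had more UMIs: cells with none had a median of 2819.5 UMIs, cells with 1 had 3192, cells with 3 had 5295 and cells with 5 had 14428.

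Apart from Top2a, few cells had several UMIs of 1 gene. Plk1 had at most 2 UMIs in any cell, Cdk1 at most 4, and Top2a at most 11. Cells with 2 or more UMIs of a gene numbered 6 (Plk1) to 59 (Ccnf) and 393 for Top2a, 0.797 (Wee1) to 1.79 (Plk1, 6 cells against 3.35) times the number expected when reads were permuted among the cells of a plate. The Top2a counts include the window at the small nucleolar RNA, with 627 of its 1771 UMIs in 465 cells. They were not made without it.

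Pairs of members in 1 cell address the question whether genes of the same stage of the cycle are transcribed in the same cells. Over the 45 pairs of members, 2519 such combinations were seen, and 2543 were expected when reads were permuted among the cells of a plate, a ratio of 0.990. The ratio ran from 0.738 in Exp160 to 1.19 in Exp260 (SD 0.125, n = 10 batches) and was above 1 in 5 of 10 batches. Of the 45 pairs, 19 had a ratio above 1. For a member and any other tested gene (8912 genes, members included, were seen in 100 cells or more), the ratio was 0.980, with 34534 of 89020 pairs above 1.

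The pairs with the highest ratio were Wee1 and Plk1 (21 cells against 16.95 expected, 1.24), Ccnb1 and Ccnf (54 against 44.2, 1.22), Wee1 and Aurka (33 against 27.3, 1.21), Ccnf and Plk1 (30 against 25.6, 1.17), and Ccna2 and Ccnb1 (18 against 16.1, 1.12). Without the dense windows, the last of these had 12 cells against 14.5 (0.830, exact unadjusted p = 0.0449, adjusted p = 0.753). The first of these pairs was above 1 in 3 of 10 batches and the second in 7. The lowest were Plk1 and Bub1 (16 against 22.7, 0.705), Plk1 and Nusap1 (12 against 16.7, 0.721) and Plk1 and Aurka (8 against 10.8, 0.742). None of the 45 pairs passed an exact two-sided test by sign flips of the batches, adjusted over 89065 pairs, and 1 had an unadjusted p under 0.05: Wee1 and Nusap1, with 32 cells against 42.4 (ratio 0.755, p = 0.00586, adjusted p = 0.463). In all, 0% of the pairs were called, and 6.35% (5657) had an unadjusted p under 0.05. The smallest p that 10 batches allow is 0.00195, and at least 3480 pairs would have to reach it before any passed the adjusted threshold.

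**Figure D5:**
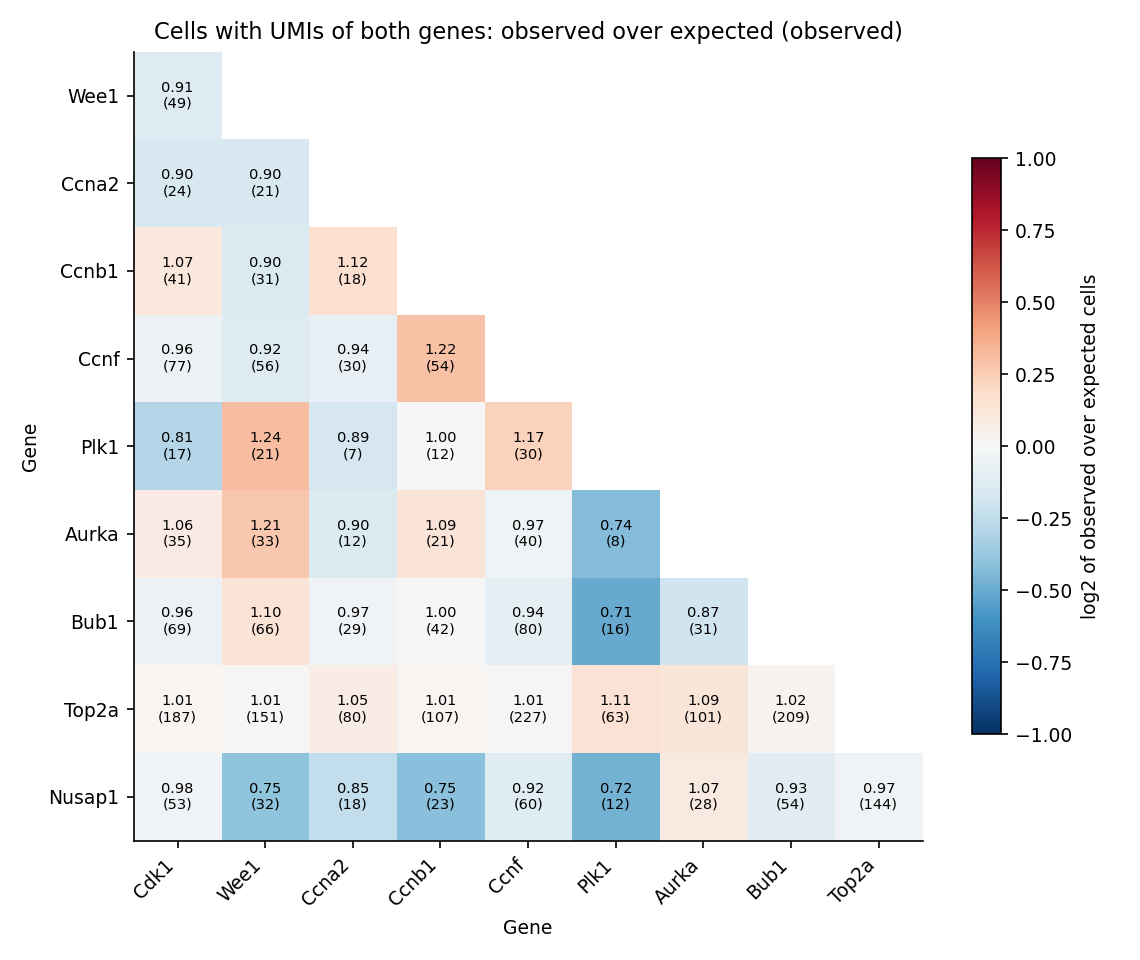
Cells with UMIs of both genes over the number expected when reads are permuted within a plate, for each pair of the 10 genes, with the observed number of cells in parentheses and colour on a log2 scale. Ratios run from 0.705 (Plk1 and Bub1, 16 cells) to 1.24 (Wee1 and Plk1, 21 cells), and pairs with Top2a, which rest on most cells, lie between 0.97 and 1.11.

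Cdk1 and its partners had ratios on both sides of 1. Cdk1 and Ccnb1 were seen in 41 cells against 38.1 expected (1.07), Cdk1 and Ccna2 in 24 against 26.7 (0.90), and Cdk1 and Wee1 in 49 against 53.7 (0.91). Over its 9 partners in the set, each gene had a ratio between 0.916 (Nusap1) and 1.03 (Aurka), and against the other tested genes between 0.939 (Plk1) and 1.00 (Top2a). With genes of other stages the ratio was 0.974 for a member and any of the G1/S genes Mcm6, Ccne1, Ccne2 and Orc1 (SD over batches 0.103) and 0.982 for a member and any of 63 replication-dependent histone genes, which are transcribed in S phase (SD 0.081). The ratio with histone genes was 0.882 with all deposited reads, above 1 in 1 of 10 batches, and 0.884 with permutation over all cells. For a member and any other tested gene, the ratio was 0.968 and 0.937 under the same settings. Without the dense windows the ratio of member pairs was 1.00, and the number of pairs above 1 was 20.

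The 68 other genes of G2 and mitosis on the list of the pathway showed both directions in AGTuC. Of 65 tested, 19 were higher and 5 lower than in scGRO–seq (limma, adjusted p under 0.05), where 25.8% of all genes were higher and 26.6% lower, with a median difference of 0.35 against 0.01 over all genes, and 0 differed in inAGTuC. Of 15 genes of mitotic motors and the spindle 6 were higher (Kif18b, Kif20a, Kif22, Kifc1, Nek2 and Prc1), and of 5 genes of the anaphase-promoting complex, the ubiquitin ligase that ends mitosis, 3 were (Cdc20, Fzr1 and Ube2c). Of 5 genes of cytokinesis 0 passed. Of 9 kinetochore and centromere genes 3 were higher, and of 9 of the chromosomal passengers and spindle checkpoint 2 were higher and 1 lower. Of 7 regulators of Cdk1 3 were higher and 1 lower, and of 7 transcription regulators 1 was higher and 1 lower. Of 8 genes of chromosome condensation and cohesion 1 was higher and 2 lower. These counts by group were not tested.

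The pathway genes with the largest upward differences were regulators of Cdk1 and of other cyclin-dependent kinases. Cks1b, a small subunit that binds Cdk1, had 35.6 and 39.4 CPM in AGTuC and 0 to 19.8 CPM in scGRO–seq (1.88 ± 0.35, adjusted p = 0.000281). Cdkn3, a phosphatase of cyclin-dependent kinases, had 31.4 and 28.6 CPM against 0 to 23.7 (1.81 ± 0.41, adjusted p = 0.00129), and Ccnb2, the second B-type cyclin, had 101 and 118 CPM against 14.9 to 44.6 (1.66 ± 0.25, adjusted p = 4.3e-05). In these 3 genes both AGTuC libraries lay above all scGRO–seq batches. For Cks1b, only the AGTuC libraries reached the filter on low counts, and for Cdkn3 no scGRO–seq batch did. A lower level in AGTuC could thus not have been found for Cks1b, so its test does not decide the direction. Lower in AGTuC were Cks2, the relative of Cks1b (52.03 and 60.7 CPM against 166 to 611, -2.88 ± 0.90, adjusted p = 0.0113), Mki67, a coat protein of mitotic chromosomes (126 and 119 CPM against 124 to 352, -1.45 ± 0.31, adjusted p = 0.000756), and Ncapd2, a condensin subunit (153 and 136 CPM against 148 to 436, -1.33 ± 0.41, adjusted p = 0.0106). Of these 3, Cks2 alone lay below all scGRO–seq batches in both AGTuC libraries. Without reads on annotated small RNA genes, Cks2 did not pass (-1.74 ± 1.14, limma, adjusted p = 0.210).

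Of the 4 G1/S genes, 3 were also higher in AGTuC, where 25.8% of all genes were. Their median difference was 0.90, against 0.94 for the 10 genes and 0.01 for all genes. Ccne1 and Ccne2, the cyclins of the G1/S transition, had differences of 1.09 ± 0.35 and 1.22 ± 0.32 (limma, adjusted p = 0.0127 and 0.00312), and Mcm6, a subunit of the replicative helicase, had 0.72 ± 0.26 (adjusted p = 0.0242). Orc1, of the complex that marks replication origins, had -0.03 ± 0.25 (adjusted p = 0.917). Between scGRO–seq batches, 10 of 43 pathway genes tested and 0 of 2 G1/S genes differed, where 41.4% of all genes did. The promoter share was higher in AGTuC for 32 of 67 pathway genes, where it was higher for 48.7% of all genes.

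Among 7422 genes with a mean level at least that of the lowest member, the ones whose log2 level followed the mean of the 10 genes most closely over the 16 batches and libraries were Gart (Pearson r 0.905), Mlec (0.904), Hnrnpab (0.902), Nutf2 (0.897) and Nucks1 (0.896). Over the 10 scGRO–seq batches alone, r was 0.816, 0.656, 0.626, 0.829 and 0.679. The samples share their assay and depth, and the 2 AGTuC libraries lie apart from the rest, so these values are a description. Between the members themselves, r over the 10 batches ran from -0.772 to 0.762, with a median of 0.081 and 27 of 45 pairs above 0.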

How the data were processed

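For each library the authors deposited a list of its reads, made by removing adaptors with Cutadapt, splitting reads by cell barcode with Flexbar, mapping reads without a ribosomal match to mm10 with bowtie2 and removing duplicates with UMI-tools (versions are not given in the sources used here). The deposited score of each entry is its mapping quality, and positions are the deposited start and end of the read. The last base of the RNA was taken as the position of the polymerase, on the strand opposite to that listed.

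UMIs were counted on spans of curated RefSeq transcripts. A molecule that several libraries held was dropped from all of them (28.9% of the reads of the 53 libraries of the 10 batches). The share was 4.67% to 23.5% in inAGTuC libraries, and 0.511% and 0.245% in the AGTuC libraries, so the assays lost unlike shares. The setting with all deposited reads kept these molecules. For Exp261_c16 there is also a scGRO–seq list, 99.7% of which recurs in its inAGTuC list, and only the latter was used. The 10 batches are those the study names for its cells per batch, and cells had to reach 1000 UMIs and 750 genes, and a library 24 cells of this kind. Doublets were not called, since nuclei were sorted singly. Batches were the replicates of scGRO–seq and libraries those of the other assays. Nothing says that they came from separate cultures, so p-values measure only the spread between these samples, which may be technical.

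The planned tests were models of counts. As no deposited column holds counts, limma 3.58.1 (R 4.3.3) was used, with voom weights, TMM factors computed by script and Benjamini–Hochberg adjustment over all genes tested at 0.05. The fits and the test of pairs were tested on simulated data. A gene was tested for level if it had at least 15 UMIs in all. It also had to reach, in at least 2 columns, the level of 10 UMIs in a column of median size. A gene could thus enter through the AGTuC libraries alone. The promoter share was tested as the interaction of part (first 500 bp or rest) and assay, with each column as a block. Genes needed at least 15 UMIs in each part over all columns. The number of cells with 2 genes was compared with the exact mean under permutation of reads within a library, by two-sided exact sign-flip tests of observed minus expected over 10 batches (1024 sign patterns). Shares have 95% Wilson intervals, which cover counting error only, since UMIs do not exclude every PCR copy. Thinned shares are exact expected values at 1000 UMIs per cell. Python 3.11.15, numpy 2.4.6, pandas 2.3.3 and scipy 1.17.1 were used.

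The members and lists were chosen with earlier results of these data known. Named besides the 10 genes are up to 3 pathway genes per comparison and direction with the largest difference among those that passed, the 4 G1/S genes, the 5 pairs with the highest and 3 with the lowest ratio among those with at least 5 expected cells, the 5 genes of most similar level, and markers. Outside this rule, the higher genes among mitotic motors and the anaphase-promoting complex are also named. The dense windows, leaving out reads on small RNA genes, limma's trend in place of voom, leaving out each scGRO–seq batch in the tests between assays and the experiment as a block were chosen after seeing the data.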

Additional observations from a re-analysis of the deposited data

Results flagged for a closer look

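In 6 of 53 sets of values of the 10 genes, 1 sample stood apart from its group by Dixon's test at the 95% level. The test assumes independent, normally distributed values. These sets share reads and batches, and some hold low counts with ties at 0, so the 6 are not set against a rate of chance. Top2a had 605 CPM in the scGRO–seq batch Exp156, and the next batch had 380 CPM (395 and 304 CPM without the window at the small nucleolar RNA). Bub1 had 172 CPM in the same batch, and the next had 103 CPM. Bub1 had 68.5 CPM in the inAGTuC library of Exp234, below the 93.9 CPM of the next. The promoter share of Ccnf was 12.3% in Exp264a and 5.10% in the next scGRO–seq batch, and that of Ccna2 was 1.49% in Exp236, from 1 UMI, and 0 in the 9 other batches. Aurka was seen in 9.73% of cells in Exp236, the batch with most UMIs per cell, and in 7.21% in the next. The part of depth or antisense reads in these values was not tested.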

How the results depend on the processing

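Of 952 values of single genes between assays under other settings, none that passed the test changed sign against one that passed, and 49 others, of 9 genes, changed sign. The count of members higher in AGTuC (6, with 25.8% of all genes) was 5 (all but Ccnb1) with all batches (19.1%) and with all deposited reads (27.6%), the latter with Bub1 (-0.78) and Top2a (-0.85) lower, 3 with limma's trend (10.2%), and 3 to 6 with 1 library or batch left out: 4 without AGTuC replicate 1 (18.3%) and 3 (Cdk1, Plk1 and Aurka) without replicate 2 (15.1%), where the lone library is assumed to vary like the other groups. All genes higher and lower numbered 3149 and 3245, 1247 and 2526 with the trend, 1965 and 1654 without AGTuC replicate 2, and 5045 and 2398 without TMM. The promoter share was higher for 1 of 8 members tested with the first 250 bp (42.3% of all genes), where Nusap1 had too few UMIs for the test. It was higher for 2 with a mapping quality of at least 20 (38.6%), and 1 with 1 read per position and cell (34.5%), in place of 4 of 9 (48.7%). With a library or batch left out the count was 1 to 4, with 1 without either AGTuC replicate (1793 and 1765 of all genes, in place of 5575), 2 without Exp236 (42.5%), and 3 without Exp260b or Exp263 (46.2% and 46.4%). Between batches, 1 member (Ccnf) passed with all deposited reads (42.2% of all genes), 1 without the dense windows (41.2%), and 1 to 2 with a batch left out (27.2% to 44.5%), 1 without Exp156 or Exp263 (38.1% and 37.5%). The mean share of cells with any of the 10 genes was 59.5% with the UMI minimum alone and 48.1% over the study's 10 kb window, and 69.3% to 72.5% with a batch left out. The ratio of member pairs was 0.955 to 1.00 over all settings, and no pair was called in any (2025 of 34143 pairs at an unadjusted p under 0.05 with a minimum of 200 cells, 7124 with permutation within batches). The causes were not tested. DESeq2, listed as another test, was not run. Replicate numbers follow accession order and pair no libraries. With the experiment as a block, member differences between inAGTuC and scGRO–seq ran from -0.56 (Top2a) to 0.49 (Aurka) where they rested on Exp208. The spread in that fit came from 2 inAGTuC libraries only, so it does not decide which genes differ. Over all batches, where the difference rested on Exp208 and Exp261, no member passed. There, 55 of 7866 genes were called and 664 had an unadjusted p under 0.05, with Ccnb1 at -1.47. Depth limits single genes in single cells, with 112 UMIs of Plk1 over all kept cells.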
